A study of Mus musculus with 6 samples.

Results

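Transcripts of 10 genes around the colony-stimulating factor 1 receptor (CSF1R) and of myeloid identity were followed in optic nerve RNA after optic nerve crush (ON-CR). The genes were taken by symbol for the known roles of their proteins, with earlier results of these data known. All 10 were found among the 25755 genes of the table. They comprise the CSF1R ligands Csf1 and Il34, the receptor gene Csf1r, the related receptor genes Csf2ra, Csf2rb and Csf3r, the transcription factor genes Spi1 and Irf8, and Aif1 and Itgam, whose protein products mark microglia and macrophages. The mice were Nf1flox/flox; hGFAP-Cre animals, in which a human GFAP promoter drives Cre recombinase, so that neuroglial progenitors and their descendants lose Nf1. Both groups carried this deletion and differed in surgery, with 3 sham-operated mice (mice 1 to 3) and 3 ON-CR mice (mice 4 to 6). Surgery was at 6 weeks and nerves were taken after perfusion at 12 weeks, given as 3 months in the labels, and RNA of whole nerves was sequenced in bulk. In such samples, more myeloid cells and more RNA per myeloid cell cannot be told apart.

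CSF1R is a receptor tyrosine kinase that microglia and most macrophages need for survival and proliferation, and it is activated by either CSF1 or interleukin-34. CSF2RA and CSF2RB form the receptor for granulocyte-macrophage colony-stimulating factor, and CSF3R is the receptor for granulocyte colony-stimulating factor. PU.1, encoded by Spi1, and IRF8 bind DNA together and set up the myeloid programme, which includes transcription of Csf1r. The study depleted tumor-associated monocytes with a CSF1R inhibitor, and the comparison here shows how transcripts of this axis stood in the crushed nerve.

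Values below are the deposited median-normalized gene values, and 1 read was worth 0.885 to 1.06 of them. The libraries held 17414086 to 23620980 estimated reads, and each ON-CR library had fewer reads than any sham library. Each of the 10 genes had at least 10 estimated reads in every library. The nerves had the transcripts of their tissue. Mbp, a myelin gene, was at 814700 to 1296400 in sham mice and 369260 to 412900 in ON-CR mice. Gfap, an astrocyte gene, was at 99186 to 123410 in sham mice and 156460 to 202960 in ON-CR mice. Sex-linked transcripts also differed between the libraries, with Xist at 2.14 to 30.9 in sham mice and 2708 to 6357 in ON-CR mice, and the Y-linked Ddx3y at 1291 to 1645 in sham mice but 976 in ON-CR mouse 4, 4.19 in mouse 5 and 0 in mouse 6. The library labelled ON-CR mouse 4 thus held both kinds of transcript, and its Eif2s3y value of 363, also Y-linked, lay within the sham range of 358 to 525, while mice 5 and 6 held 2 reads or fewer of it. Sex and surgery cannot be told apart in these libraries. The labels number each library as a mouse, the study's methods describe 2 mice per sample for quantitative PCR, and whether sequenced libraries were pooled is not given in the sources used here. Summed markers of B and plasma cells were 98734 in ON-CR mouse 6 and 404 to 2458 in the other 5 mice, and summed neuronal markers were 9980 in ON-CR mouse 5 and 1425 to 4409 in the others.

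After ON-CR, Irf8 and Aif1 rose, and none of the 10 genes was called lower. Irf8 increased 3.01-fold and Aif1 2.40-fold in group means, while Csf1r (1.27-fold) did not pass the test. Csf1 (0.940-fold) and Spi1 (0.849-fold) had lower means and did not pass the test either. With limma, 2 of the 10 genes were called higher at an adjusted p at or under 0.05, against 0.971% of all genes called higher (250 of 25755) and 1.49% among the 14436 genes with a mean value of at least 50. Called lower were 0 of the 10 genes, against 1.13% of all genes (290). At an unadjusted p of 0.05 or less, 6 of the 10 genes were higher, against 7.37% of all genes, and 0 were lower, against 8.22%. Because the 10 genes were chosen with earlier results of these data known, these shares are a description and no test of the set. Scaling to the total shifted the median log2 fold change of all genes from 0.03 to 0.15 and the split of calls to 421 higher and 195 lower. The median log2 fold change of the 10 genes was 0.56, beside that all-gene median of 0.03. For 5 of the 10, Il34, Csf3r, Irf8, Aif1 and Itgam, every ON-CR value exceeded every sham value, and this held for 10.5% of all genes, while for 0 of the 10 every ON-CR value was lower, as held for 11% of all genes.

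**Figure D1:**
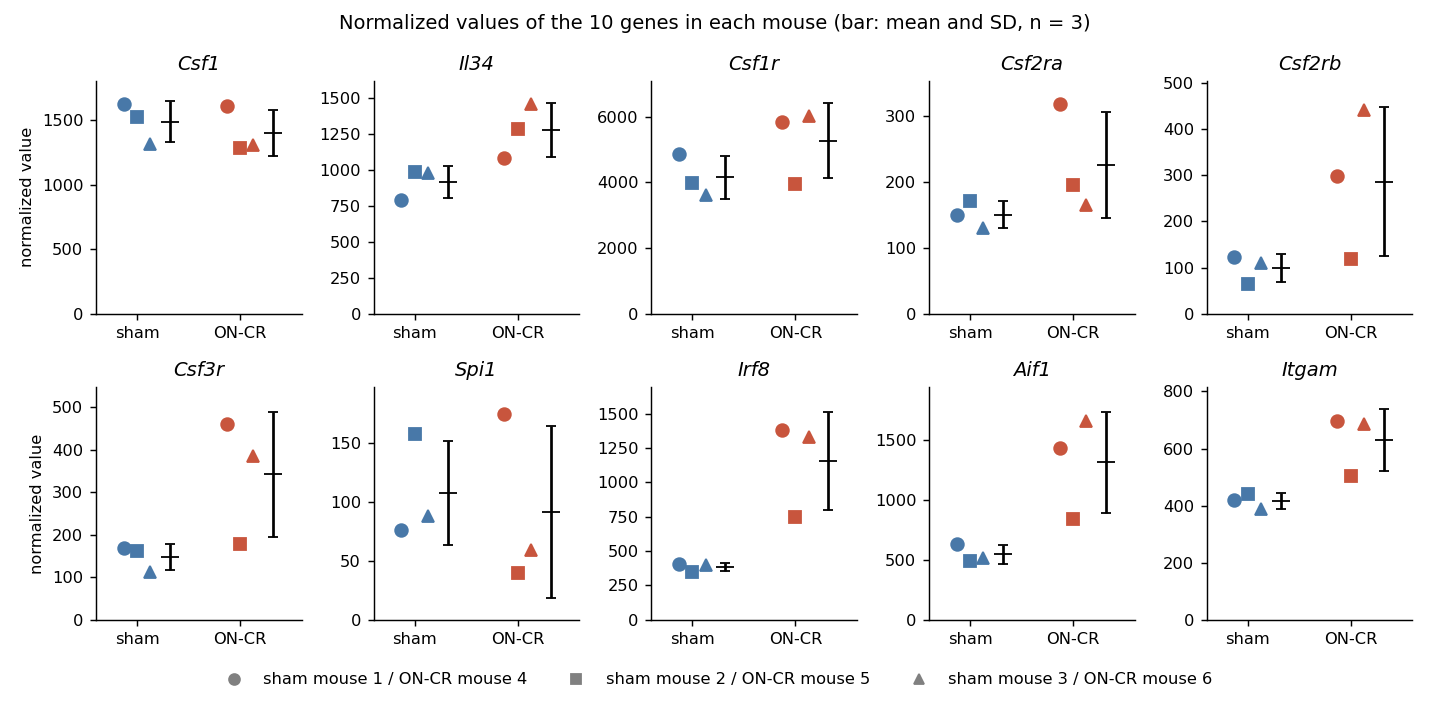
Normalized values of the 10 genes in each of the 3 sham (blue) and 3 ON-CR (red) mice, on linear axes that start at 0, with the mean and SD of each group beside the points. Irf8, Aif1, Itgam, Csf3r and Il34 show no overlap between the groups, and ON-CR mouse 5 is the lowest of its group for Irf8, Aif1, Itgam and Csf3r.

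Among the ligands, Csf1 encodes the secreted cytokine CSF1, also known as macrophage colony-stimulating factor. Sham mice 1, 2 and 3 had normalized values of 1627, 1530 and 1316, and ON-CR mice 4, 5 and 6 had 1610, 1285 and 1310. The groups overlapped, with mouse 4 as high as the upper sham mice and mice 5 and 6 just under the lowest sham mouse. The log2 fold change was -0.09 (standard error, SE, 0.13, limma adjusted p = 0.801), with a 95% interval from -0.39 to 0.21. A change beyond 0.765-fold or 1.15-fold thus lay outside the interval, on the log2(value + 1) scale used for all fold changes from limma. The direction of this small difference turned to 0.038 under scaling to the total.

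Il34 encodes interleukin-34, the other CSF1R ligand, which in the brain is known mainly as a product of neurons. It was at 787, 985 and 973 in the sham mice and at 1082, 1282 and 1457 in ON-CR mice 4, 5 and 6. Every ON-CR value was above every sham value. Group means were 915 ± 111 and 1274 ± 188 (SD, n = 3 each), and the log2 fold change of 0.47 (SE 0.15) had an adjusted p of 0.145 by limma and so did not pass the test. Its 95% interval ran from 0.15 to 0.80. Summed neuronal markers were 4409, 1953 and 1425 in the sham mice, taken in order, against 1471, 9980 and 2689 in ON-CR mice 4, 5 and 6. Of 8 neuronal markers, 8 had a log2 fold change above 0, with a median of 0.81, and 0 were called. The part of neuronal transcripts in the Il34 values was not tested.

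The balance of the ligands was taken within each mouse. The Csf1 value was 2.07, 1.55 and 1.35 times the Il34 value in sham mice 1, 2 and 3, and 1.49, 1.00 and 0.900 times in ON-CR mice 4, 5 and 6. Mice 5 and 6 were below all sham mice, and mouse 4 lay between sham mice 2 and 3. On the log2 scale the ratio was 0.71 ± 0.31 in sham mice and 0.14 ± 0.38 after ON-CR (SD, n = 3 each), a difference of -0.56 with an exact two-sided permutation p of 0.2, where 3 mice against 3 allow no p below 0.1. Per kilobase of exon, the Il34 level was the higher in every mouse, with Csf1 at 0.502 to 0.766 of Il34 in sham mice and 0.334 to 0.552 in ON-CR mice. This order rests on the merged length of all annotated exons, 5281 bases for Csf1 and 1959 for Il34. Which transcripts of each gene were present was not tested.

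**Figure D2:**
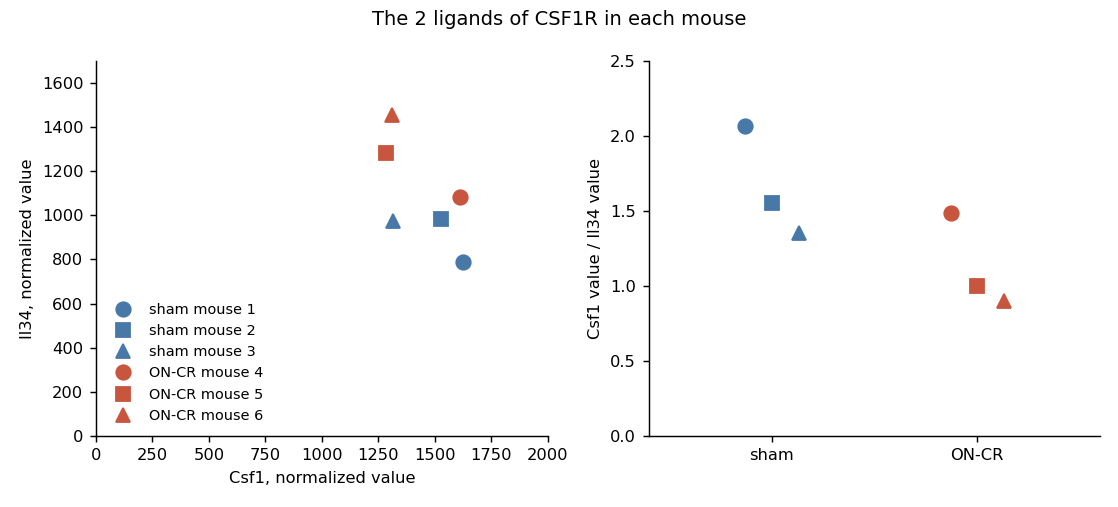
Left, Il34 against Csf1 as normalized values in each mouse, and right, the Csf1 value divided by the Il34 value in each mouse, with sham mice in blue and ON-CR mice in red. Csf1 values of the groups overlap, Il34 values do not, and the ratio is 1.35 to 2.07 in sham mice and 0.900 to 1.49 in ON-CR mice.

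Csf1r, the receptor gene, was expressed strongly in both groups. It was at 4877, 3974 and 3615 in the sham mice 1, 2 and 3, against 5849, 3950 and 6020 in ON-CR mice 4, 5 and 6. ON-CR mice 4 and 6 exceeded all sham mice, and mouse 5 lay between sham mice 2 and 3. Its log2 fold change was 0.33 (SE 0.18, limma adjusted p = 0.402), with a 95% interval from -0.06 to 0.72, so that an increase above 1.65-fold lay outside it. Csf1r (ENSMUSG00000024621.16; GRCm38 chromosome 18, 61100598 to 61132149) shares 873 exon bases with Hmgxb3 on the opposite strand, which had a mean value of 319. The library kit does not mark strand, so reads from these bases cannot be assigned to one of the genes.

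The chains of the granulocyte-macrophage receptor were at lower levels. Csf2ra, the ligand-specific alpha chain, was at 151, 172 and 130 in sham mice, against 318, 195 and 165 in ON-CR mice 4, 5 and 6. Mouse 6 lay within the sham range, and the log2 fold change was 0.53 (SE 0.25, limma adjusted p = 0.337). Csf2rb, the signalling beta chain shared with the receptors for interleukin-3 and interleukin-5, was at 123, 63.6 and 109 in sham mice, against 298, 118 and 441 in ON-CR mice 4, 5 and 6. Mouse 5 fell within the sham range while mice 4 and 6 were well above it, and the log2 fold change was 1.38 (SE 0.43, limma adjusted p = 0.148). Without ON-CR mouse 5 it was 1.92 with an adjusted p of 0.00671 by limma. The adjacent paralog Csf2rb2, a near-identical copy whose reads the counting could have exchanged with those of Csf2rb, showed a like pattern, with 33.0, 32.9 and 34.3 in sham mice, against 103, 43.4 and 151 in ON-CR mice 4, 5 and 6.

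Csf3r, the receptor that neutrophils and their precursors depend on and that monocytes and microglia also transcribe, was at 170, 162 and 114 in sham mice, against 462, 179 and 385 in ON-CR mice 4, 5 and 6. The groups did not overlap, but mouse 5 lay just above the highest sham mouse. The log2 fold change was 1.11 (SE 0.32, limma adjusted p = 0.121), and it was 1.52 without mouse 5 (adjusted p = 0.00433 by limma). Of 10 neutrophil markers tested with limma, 0 were called in either direction, also without adjustment of p, and their summed level was 105 to 428 in sham mice and 208 to 350 in ON-CR mice. Within that list S100a8 and S100a9, the most abundant proteins of neutrophil cytosol, were at 26.6 to 106 and 12.4 to 49.9 in sham mice and at 65.8 to 114 and 17.9 to 35.3 in ON-CR mice, overlapping for both.

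Of the myeloid transcription factor genes, Irf8 rose and Spi1 did not pass the test. Spi1 was at 76.4, 158 and 88.3 in the sham mice 1, 2 and 3, against 174, 39.8 and 59.2 in ON-CR mice 4, 5 and 6. Mouse 4 was above all sham mice and mice 5 and 6 were below them. This gave a log2 fold change of -0.45 with the widest error of the 10 genes (SE 0.49, limma adjusted p = 0.718), and a 95% interval from -1.54 to 0.64. Leaving out ON-CR mouse 4 moved it to -1.06, ON-CR mouse 5 to -0.0046, ON-CR mouse 6 to -0.28 and sham mouse 2 to -0.14, and Spi1 was called in none of these. Spi1 rested on 38 to 178 estimated reads per library.

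Irf8 was at 404, 351 and 396 in sham mice, against 1384, 744 and 1332 in ON-CR mice 4, 5 and 6. Its lowest ON-CR value was well above its highest sham value, and sham values lay close together. Means were 384 ± 29.0 and 1154 ± 355 (SD, n = 3 each), or 1.53 as a log2 fold change (SE 0.22, limma adjusted p = 0.00733, 95% interval 1.05 to 2.02). The call was lost without sham mouse 2 (adjusted p = 0.0568 by limma) and without ON-CR mouse 6 (adjusted p = 0.0902 by limma). Irf8 (ENSMUSG00000041515.10) spans 120736358 to 120756694 of chromosome 8 in GRCm38.

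Aif1 encodes IBA1, an actin-binding protein used to stain microglia and macrophages. Values of 635, 486 and 514 in sham mice stood beside 1434, 842 and 1653 in ON-CR mice 4, 5 and 6, with no overlap. Means were 545 ± 79.0 and 1310 ± 420 (SD, n = 3 each), or 1.22 as a log2 fold change (SE 0.23, limma adjusted p = 0.0260, 95% interval 0.71 to 1.72). This call held without ON-CR mouse 5 and was lost on leaving out any other mouse, with adjusted p from 0.0651 without ON-CR mouse 4 to 0.175 without ON-CR mouse 6, by limma, at log2 fold changes of 1.02 to 1.33. Aif1 (ENSMUSG00000024397.14) spans 35170991 to 35176068 of chromosome 17 in GRCm38.

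Itgam encodes CD11b, the integrin alpha chain of complement receptor CR3. It was at 420, 442 and 388 in sham mice, against 696, 503 and 686 in ON-CR mice 4, 5 and 6, with no overlap. The log2 fold change of 0.58 (SE 0.16) had an adjusted p of 0.0985 by limma, and Itgam was called on leaving out mouse 5 (0.73, adjusted p = 0.0219 by limma) and under scaling to the total (0.71, adjusted p = 0.0401 by limma). Itgam shares 3450 exon bases with the same-strand gene model Gm49368, which had a mean value of 2.33.

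**Figure D3:**
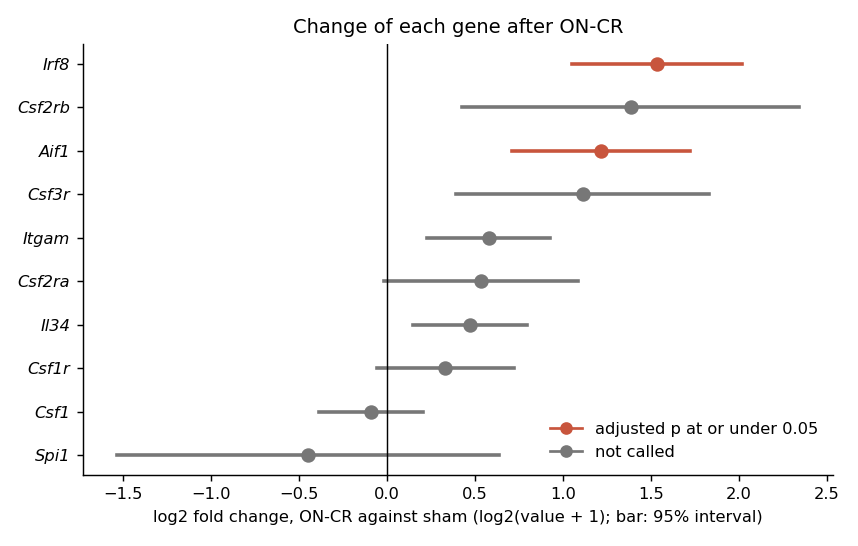
Log2 fold change of each gene after ON-CR against sham on the log2(value + 1) scale (points) with its 95% interval from limma (bars), with genes called at an adjusted p at or under 0.05 in red. Irf8 (1.53) and Aif1 (1.22) are called, and the interval of Csf1 (-0.39 to 0.21) is the narrowest.

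The bases before the transcription start are shown for Irf8, Aif1, Itgam and Csf3r, the genes with a RefSeq promoter whose ON-CR values all exceeded the sham values. Each run is the 250 bases upstream, 5′ to 3′ on the gene's strand, on GRCm38.p6. They are chr8:120736108-120736357 (plus strand, the first of 2 starts of Irf8), chr17:35176053-35176302 (minus strand, Aif1), chr7:128062390-128062639 (plus strand, Itgam) and chr4:126024409-126024658 (plus strand, Csf3r). Capitals mark letters searched on both strands, namely the core preferred by PU.1, GAGGAA or its reverse complement TTCCTC, a shortened ETS-IRF composite, GGAANNGAA or its reverse complement TTCNNTTCC, and a shortened IRF element, GAAANNGAA or its reverse complement TTCNNTTTC.
Irf8: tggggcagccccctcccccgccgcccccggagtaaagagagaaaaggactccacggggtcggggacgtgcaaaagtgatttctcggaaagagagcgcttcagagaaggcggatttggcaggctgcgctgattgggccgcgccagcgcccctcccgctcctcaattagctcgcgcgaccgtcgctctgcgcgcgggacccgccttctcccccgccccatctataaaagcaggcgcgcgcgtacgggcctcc
Aif1: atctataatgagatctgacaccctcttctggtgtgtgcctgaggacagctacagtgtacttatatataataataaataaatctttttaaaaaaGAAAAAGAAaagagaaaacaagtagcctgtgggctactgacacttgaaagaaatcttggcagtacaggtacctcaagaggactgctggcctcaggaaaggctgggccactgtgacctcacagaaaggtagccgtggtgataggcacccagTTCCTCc
Itgam: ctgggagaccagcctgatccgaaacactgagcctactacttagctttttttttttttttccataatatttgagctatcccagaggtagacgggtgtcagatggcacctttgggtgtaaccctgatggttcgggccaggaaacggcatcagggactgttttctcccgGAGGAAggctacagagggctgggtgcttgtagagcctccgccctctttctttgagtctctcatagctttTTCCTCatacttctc
Csf3r: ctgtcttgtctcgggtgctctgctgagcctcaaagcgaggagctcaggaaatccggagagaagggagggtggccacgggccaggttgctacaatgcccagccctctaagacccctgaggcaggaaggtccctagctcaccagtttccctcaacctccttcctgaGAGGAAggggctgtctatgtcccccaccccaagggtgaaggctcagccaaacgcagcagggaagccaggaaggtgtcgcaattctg

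The PU.1 letters stood 7 to 2 bases before the start of Aif1, 84 to 79 and 15 to 10 bases before that of Itgam and 86 to 81 bases before that of Csf3r. Aif1 also held the IRF letters, 157 to 149 bases before its start. Of the 3 motifs, 0 were found in either Irf8 window, and none of the matches given here overlapped another. Of 32851 RefSeq promoters cut to the same length, 23.3% held the PU.1 letters, 6.99% the ETS-IRF letters and 7.13% the IRF letters. RefSeq promoters were matched for 6 of the 10 genes, which leaves out Il34, Csf1r, Csf2rb and Spi1. Of the others, the Csf2ra window held the PU.1 letters at 2 places and the Csf1 window held 0 of the motifs.

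Levels of different genes were compared per kilobase of exon, using the merged length of all annotated exons of each gene. In sham mice the order of mean levels was Csf1r (720), Il34 (467), Aif1 (356), Csf1 (282), Itgam (83.0), Irf8 (54.4), Csf2ra (52.5), Csf3r (41.1), Spi1 (39.9) and Csf2rb (13.6). Ranges over the 3 mice overlapped between Il34 and Aif1 and between each pair of neighbours from Irf8 to Spi1, and the other neighbours were separate. In ON-CR mice Csf1r was at 913, Aif1 at 855 and Il34 at 650 per kilobase, each overlapping the next, followed by Csf1 at 265, which stood apart from both its neighbours. Irf8 came next at 164 per kilobase, above Itgam (125), Csf3r (94.8), Csf2ra (78.7), Csf2rb (39.3) and Spi1 (33.8), with an overlap at every step.

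The genes also differed in how far each ON-CR mouse departed from sham. In ON-CR mouse 4, 9 of the 10 genes exceeded the highest sham value, with a median fold of 1.89 over the sham mean. In mouse 5 it was 6 genes at a median fold of 1.21, and in mouse 6 it was 7 genes at 1.62. Mice 5 and 6 each had 2 genes below the lowest sham value, Csf1 and Spi1. Over the 6 libraries, log2 values of Irf8 and Aif1 had a Pearson r of 0.98, Aif1 and Itgam 0.96, and Csf3r and Itgam 0.98, whereas Irf8 and Spi1 had r = -0.09. Since these 6 points are 2 groups of libraries, the coefficients describe the group difference as well as the spread within groups.

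To set each gene beside the myeloid transcripts of the same nerve, its log2 value in each mouse was taken relative to the mean of 22 pan-myeloid genes, among them Ptprc, Cd68, Tyrobp and Laptm5. That mean was 8.93 ± 0.16 in sham mice and 9.83 ± 0.48 after ON-CR (SD, n = 3 each), a difference of 0.90. Some genes of the list, Ptprc among them, are not restricted to myeloid cells. The mean was highest in ON-CR mouse 6 (10.3), which also had the highest summed markers of B and plasma cells (98734) and of T and NK cells (1577). The part of lymphocytes in the mean, and so in the ratios, was not tested. Relative to this mean, Irf8 was higher by 0.63 and Aif1 by 0.32, with no overlap between the groups. Csf1r was lower by 0.57 in the same measure, at 3.15, 3.18 and 2.90 in sham mice and 2.61, 2.63 and 2.29 in ON-CR mice. Its own log2 fold change was 0.33 and did not pass the test. The lower ratio thus reflects the 0.90 by which the pan-myeloid mean was higher, and not a lower Csf1r value. Csf1 was lower by 0.99, also without overlap, a difference made up largely of the 0.90 by which the pan-myeloid mean was higher, and neither Csf1 nor Il34 is restricted to myeloid cells. Each of these 4 had an exact two-sided permutation p of 0.1, the smallest that 3 mice against 3 allow, and an adjusted p of 0.275 over the 11 ratios tested.

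The remaining ratios overlapped between the groups. The difference was -0.43 for Il34, -0.37 for Csf2ra, 0.48 for Csf2rb, 0.21 for Csf3r, -1.35 for Spi1 and -0.32 for Itgam. Leaving out ON-CR mouse 6 turned the difference of Csf2ra to 0.049, and leaving out ON-CR mouse 4 turned that of Csf3r to -0.020.

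**Figure D4:**
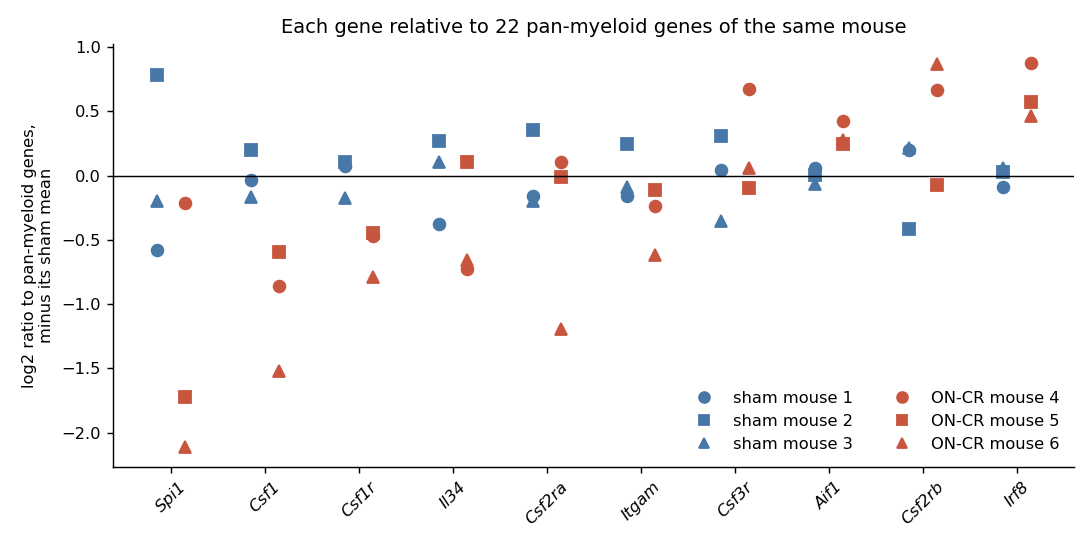
Log2 value of each gene minus the mean log2 value of 22 pan-myeloid genes of the same mouse, shown as the difference from its sham mean, with sham mice in blue and ON-CR mice in red. Csf1 and Csf1r lie below and Irf8 and Aif1 above all sham mice in each of the 3 ON-CR mice, and Spi1 spreads most.

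Beyond the 10 genes, 81 genes of 4 lists from the pathway and the myeloid programme were read from the same fit. Of these, 12 were called higher and 0 lower by limma, against 0.971% and 1.13% of all genes, with a median log2 fold change of 0.53. At an unadjusted p of 0.05 or less, 1 was lower, against 8.22% of all genes. Higher at that threshold were 1 of 5 other ligands and receptor chains and 13 of 30 CSF1R signalling genes. So were 7 of 27 transcription factor genes and 19 of 22 pan-myeloid genes, against 7.37% of all genes. The lists too were chosen with earlier results of these data known. The count of called genes was 32 without ON-CR mouse 5 and 1 without either sham mouse 2 or ON-CR mouse 6. It was 5, 4 and 6 without sham mouse 1, sham mouse 3 and ON-CR mouse 4. Calls over all genes moved in the same direction, from 250 higher to 489 without ON-CR mouse 5, and to 78, 39, 105, 113 and 137 without sham mouse 2, ON-CR mouse 6, sham mouse 1, sham mouse 3 and ON-CR mouse 4.

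Other ligands and receptor chains of the family showed 0 calls in either direction among the 5 genes that the table held, and Csf3, Il3, Il5 and Il5ra were not analysed here. Csf2, the gene of granulocyte-macrophage colony-stimulating factor, was at or under the floor of 3 reads in 5 mice and had 9 reads in ON-CR mouse 6. Ptprz1, a receptor phosphatase that also binds interleukin-34, was the most abundant of the list, at 3905 ± 245 in sham mice and 4541 ± 327 after ON-CR (SD, n = 3 each, adjusted p = 0.368 by limma). Csf2rb2 was the gene without overlap in this list (log2 fold change 1.37, adjusted p = 0.136 by limma), and 1 gene was higher and 0 were lower at an unadjusted p of 0.05 or less.

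CSF1R signalling genes comprised 30 genes downstream of the receptor, among them adaptors, kinases, phosphatases, ubiquitin ligases and STAT factors, of which 2 were called higher and 0 lower, with a median log2 fold change of 0.43. Tyrobp, which encodes the adaptor DAP12, was at 784, 656 and 625 in sham mice, against 1603, 1313 and 2109 in ON-CR mice 4, 5 and 6. The groups were far apart (log2 fold change 1.26, adjusted p = 0.00636 by limma). Fgr, a Src-family kinase of myeloid cells, was at 37.2, 41.6 and 34.8 in sham mice, against 191, 73.5 and 223 in ON-CR mice 4, 5 and 6 (log2 fold change 1.93, adjusted p = 0.0336 by limma). Pik3r1, a regulatory subunit of phosphoinositide 3-kinase, had the highest mean value of the list and overlapped between the groups (2265 ± 369 and 2482 ± 327, SD, n = 3 each). The list's count was 10 without ON-CR mouse 5 and 0 without sham mouse 2 or ON-CR mouse 6.

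Among 27 further myeloid transcription factor genes in the table, 2 were called higher and 0 lower, with a median log2 fold change of 0.47. Egr2, an immediate early factor also used in macrophage activation, was at 20.2, 14.2 and 24.4 in sham mice, against 88.7, 52.4 and 116 in ON-CR mice 4, 5 and 6 (log2 fold change 2.04, adjusted p = 0.0250 by limma). Its groups did not overlap. Bhlhe41 had the highest mean value, at 6711 ± 715 in sham mice and 7098 ± 455 after ON-CR (SD, n = 3 each), and the groups overlapped. The list's count was 5 without ON-CR mouse 5 and 0 without sham mouse 1, sham mouse 2 or ON-CR mouse 6.

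The 22 pan-myeloid genes held 9 of the calls, all higher, with a median log2 fold change of 0.91, and Tyrobp stands both here and among the signalling genes. The largest were Cd68, a lysosomal membrane protein of phagocytes (1.80, adjusted p = 0.00128), Fcer1g, the Fc receptor gamma chain (1.34, adjusted p = 0.00880), Cybb, the catalytic subunit of the phagocyte oxidase (1.33, adjusted p = 0.0489), and Tyrobp, followed by Itgb2, the beta chain that pairs with CD11b (1.20, adjusted p = 0.0256), all by limma. Laptm5, a lysosomal protein of blood cells, had the highest mean value of the list, at 4271 ± 441 in sham mice and 8020 ± 2048 after ON-CR (SD, n = 3 each, adjusted p = 0.0401 by limma). The list's count was 19 without ON-CR mouse 5, between 2 and 5 without sham mouse 1, sham mouse 3 or ON-CR mouse 4, and 1 on leaving out sham mouse 2 or ON-CR mouse 6.

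**Figure D5:**
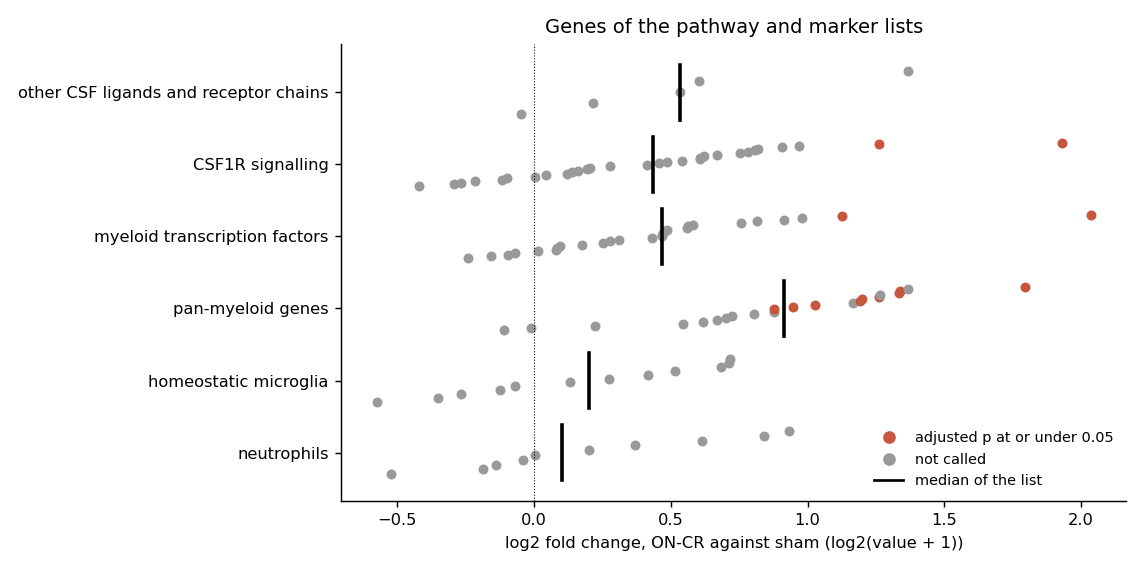
Log2 fold change after ON-CR against sham, on the log2(value + 1) scale, of each gene (point) in 4 pathway lists and 2 marker lists, with called genes in red and the median of each list as a black line. Medians run from 0.10 for neutrophil markers to 0.91 for pan-myeloid genes.

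Markers of the cell types that could carry these transcripts were read beside them. Of 12 homeostatic microglia markers 0 were called in either direction, with a median log2 fold change of 0.20, and P2ry12 (-0.35) and P2ry13 (0.71) differed in direction without passing the test. At an unadjusted p of 0.05 or less by limma, 3 of these microglial markers were higher and 0 lower. Border macrophage markers (8 genes, Mrc1 and Cd163 among them, -0.14 and 0.14) and monocyte markers (10 genes, Ccr2 and Ly6c2 among them, 0.13 and 1.50) also had 0 calls, with medians of 0.06 for both, and without adjustment 1 border macrophage marker was higher, 1 was lower and 2 monocyte markers were lower. Ly6c2 was at 385 in ON-CR mouse 6 and 25.5 to 70.5 in the other mice. T and NK cell markers had 0 calls and a summed level of 212 to 633 in sham and 201 to 1577 in ON-CR mice, highest in mouse 6, and 0 of 9 B and plasma cell markers were called, and without adjustment 0 genes of either list passed. Myelin markers fell, with 7 of 9 oligodendrocyte genes called lower, and the summed level of this list went from 1291600 to 1846500 in sham mice to 630020 to 746570 in ON-CR mice. Without ON-CR mouse 6, the log2 fold changes were 1.40 for Irf8 (limma adjusted p = 0.0902) and 1.02 for Aif1 (limma adjusted p = 0.175), so that neither was called. The part of these lists in the values of the 10 genes was not tested.

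The genes whose log2 values over the 6 libraries were most like those of Csf1r, among 14426 genes with a mean value of at least 50, were Etohd2 (Pearson r = 0.99), Actr3 (0.99), Pld4 (0.99), Cdk5rap3 (0.99) and Il4ra (0.98). For Il34 they were Mif-ps (0.99), Iqsec2 (0.99), Gm5879 (0.99), Abhd11os (0.99) and Gm10847 (0.99). None of these neighbours was called by limma, with adjusted p from 0.0826 for Abhd11os to 0.750 for Cdk5rap3. They are the highest of 14426 coefficients over 6 libraries, where values this high can also arise between unrelated genes, and no coefficient was tested. Il34 shares 22 and 75 exon bases with the antisense genes Gm15894 and Gm15895, which had mean values of 13.3 and 7.22, and its reads could not be separated from theirs there.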

How the data were processed

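RNA of optic nerves was sequenced in bulk after a SMARTer Ultra Low library preparation, which does not mark strand. Per the labels and the study's methods, the authors aligned and quantified reads with DRAGEN against Ensembl mouse gene models of mm10 (GRCm38) and normalized them by the median in Partek Flow 10.0. What the authors deposited is thus a normalized signal for each gene, made from estimated counts by a factor for each library, and 0 of its columns were left unmapped. Values were whole reads within 0.01 reads for 61.5% to 65.6% of values above 0, so no count test was used. The floor of 3 reads was worth 2.66 to 3.18 and covers counting error only.

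Mice were grouped by the labels. limma 3.58.1 (R 4.3.3) was fitted to log2(value + 1) of all 25755 genes, using its mean-expression trend, and p-values were adjusted by Benjamini-Hochberg over all genes, and every adjusted p is from this fit unless a permutation test is named. On simulated data, the fit was checked for recovery of known changes of fixed size, in genes with a mean value of at least 50 and at a fixed dispersion. Changes as small as most of those given here, and spreads that differ between genes, were not simulated. The labels give each library a mouse number, and p-values measure the spread between these samples. Ratios were compared by exact two-sided permutation tests. Positions were found for 97.2% of genes in GENCODE M21, and promoters are from RefSeq on GRCm38.p6. Protein lengths and identities were planned and were not analysed here.

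The 10 genes and the lists were chosen with earlier results of these data known. Named genes were the 10, up to 5 called genes with the largest change and the gene of highest mean per pathway list, called genes and the first 2 of each marker list, and the 5 closest in pattern to Csf1r and to Il34. Alternatives were pseudocounts of 2, 0.5 and 0.1, TMM, upper-quartile and total scaling, filters at 10 reads in every library or a mean of 10, a robust fit, voom with sample quality weights, and leaving out each mouse. Some results for genes that the rule would name are left out of this text. The RNA sequencing of mice with brain injury was not analysed here.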

Additional observations from a re-analysis of the deposited data

How the results depend on the processing

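Irf8 and Aif1 kept their calls under all 10 settings other than leaving out a mouse, with adjusted p by limma of 0.00311 to 0.0107 and of 0.00980 to 0.0378, and the number of the 10 genes called was 2 in these, or 3 under scaling to the total. Leaving out 1 mouse at a time gave 0 to 5 of the 10 genes, 1 to 32 of the 81 pathway genes, 0 to 1 of the other ligands and receptor chains, 0 to 10 of the CSF1R signalling genes, 0 to 5 of the transcription factor genes and 1 to 19 of the pan-myeloid genes, always most without ON-CR mouse 5. Among CSF1R signalling genes 4 were called under voom with sample quality weights, and among transcription factor genes 4 under scaling to the total. The log2 fold change of Csf1 turned to 0.038 under scaling to the total. Leaving out 1 mouse moved the Csf2ra difference relative to pan-myeloid genes between -0.60 and 0.049 and that of Csf3r between -0.020 and 0.37. Csf1 relative to Il34 stayed between -0.78 and -0.39 in the same settings. The cause of these shifts was not tested. Fewer mice enter each of these fits. No paired analysis was possible because the mouse numbers differ between the groups. Differences in genes near the floor of 3 reads, such as Csf2, were not detectable at this depth.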

Other observations

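Among the marker lists of other myeloid cells, Itgax and Siglecf were called. Itgax encodes CD11c, an integrin alpha chain of dendritic cells that activated microglia also transcribe. It was at 29.7, 26.6 and 31.7 in sham mice 1, 2 and 3 and at 301, 163 and 401 in ON-CR mice 4, 5 and 6, a log2 fold change of 3.16 (SE 0.32, limma adjusted p = 0.00168). The 6 other dendritic cell markers were not called, and Flt3 (0.45) and Zbtb46 (-0.03) overlapped between the groups. Siglecf, a sialic acid receptor of eosinophils, was at 10.6, 15.9 and 2.82 in sham mice and at 103, 49.3 and 82.0 in ON-CR mice 4, 5 and 6 (log2 fold change 3.06, adjusted p = 0.0242 by limma). It stood alone in its list, in which 5 other mast cell and eosinophil markers were not called, Cpa3 (-0.72) and Cma1 (-1.07) among them. Epx, the other eosinophil gene of the list, had a log2 fold change of -0.77, and 1 of the 6 genes was above 0. Which cells held the Siglecf transcripts was not tested. Endothelial markers (Pecam1 -0.03, Cldn5 0.10) and fibroblast markers (Col1a1 -0.70, Col1a2 -0.24) had 0 calls in either direction. So had keratinocyte markers (Krt5 -1.19, Krt14 -1.36), neuronal markers (Snap25 0.40, Syt1 0.79), T and NK cell markers (Cd3e 1.22, Cd3d 0.98) and B and plasma cell markers (Cd79a 0.34, Cd79b 0.92). Krt5 and Krt14 do not stand for their list, in which 4 of 7 genes had a log2 fold change above 0, with a median of 0.34. Of 9 astrocyte markers, S100b was called lower (-0.75, adjusted p = 0.0185 by limma), and Gfap (0.64, adjusted p = 0.0859 by limma) and Aqp4 (0.43) were not called. Every ON-CR value of Gfap and of Aqp4 was above every sham value, as held for 10.5% of all genes. Without adjustment of p, 3 astrocyte markers were higher and 2 lower by limma, against 7.37% and 8.22% of all genes. At an unadjusted p of 0.05 or less by limma, 1 endothelial marker was higher and 1 lower, 3 fibroblast markers were lower, and 0 markers of keratinocytes and neurons passed.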
